A study of Mus musculus with 13 samples.

Results

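The core genes of the circadian clock were examined in bulk RNA of the mouse midbrain, to ask whether clock level differed between groups, as it could with the hour of harvest or with stress. The 10 genes, Per1, Per2, Per3, Dbp, Tef, Nr1d1, Nr1d2, Arntl, Ciart and Cry1, were chosen by name out of 49315 annotated genes, and each was counted in every one of the 13 libraries.

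Every mouse carried floxed Ripk3 alleles (Ripk3fl/fl) and received tamoxifen at 60 mg/kg for 5 days. Cre+ mice also carried Cre under the astrocyte promoter of Aldh1l1, so that tamoxifen deletes Ripk3, a kinase of inflammatory and necroptotic signaling, in astrocytes. Cre- mice were littermates without Cre and kept the gene. MPTP, a toxin of dopaminergic neurons, was given at 20 mg/kg once a day for 5 days, controls received saline, and midbrains were taken 3 days after the last dose from mice 8 to 12 weeks old. Each library came from 1 animal. Cre- Saline, Cre+ Saline and Cre- MPTP had 3 animals each, and 4 animals made up Cre+ MPTP. The hour of harvest is not given in the sources used here.

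The clock is a feedback loop of transcription. ARNTL (also called BMAL1) pairs with CLOCK or NPAS2, binds E-box sequences and drives the Per and Cry genes, whose proteins then hold that pair back, and CIART is a further repressor of it. The same pair drives Nr1d1 and Nr1d2, whose products (REV-ERB alpha and beta) repress Arntl through a site called an RRE, so that Arntl RNA peaks when its repressors are low. Dbp and Tef encode factors that bind D-box sequences and carry the rhythm to output genes. Per1 and Per2 also respond to hormones and to stimulation of the cell, and glucocorticoids are a known inducer of Per1.

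The libraries held between 11489150 and 29397278 reads assigned to genes, and Cre- MPTP replicate 1 was the lowest, with the next at 17713289. That library also departed from the other 12 by the base composition of the transcripts. Its median log2 deviation from each gene's median over all 13 libraries ran from -1.01 in the fifth of genes with the lowest GC content to 1.15 in the fifth with the highest. Cre+ MPTP replicate 4 held 7081 CPM (counts scaled to library size) summed over 8 muscle genes, against 16.0 to 167 elsewhere. Cre+ Saline replicates 1 and 3 held 615 and 451 CPM of 7 pituitary genes, against 9.61 to 84.1 in the other libraries. Cre- Saline replicate 1 and Cre- MPTP replicate 1 held 125 and 91.6 CPM of 7 forebrain neuron genes, against 25.2 to 44.1 elsewhere. Summed over 7 genes, oligodendrocyte RNA was lower in Cre- MPTP (9169 to 11795 CPM) than in Cre- Saline (12529 to 17209 CPM). It was likewise lower in Cre+ MPTP (11137 to 14438 CPM) than in Cre+ Saline (15125 to 16932 CPM). The part of oligodendrocyte RNA in the clock levels was not tested. Ripk3 itself had 4 to 40 reads per library and averaged 0.252 CPM in Cre- Saline, 0.302 in Cre+ Saline, 0.895 in Cre- MPTP and 0.416 in Cre+ MPTP, so the whole-tissue count does not check an astrocyte deletion. Dopaminergic neuron genes were present in every library, at 362 to 625 summed CPM over 10 genes. Of the neuropeptide genes of the suprachiasmatic nucleus, the master clock in the hypothalamus, Vip had 19 to 316 reads per library, Avp 2 to 26, Prok2 up to 23 and Nms up to 5. The 8 pineal genes summed to 82.5 CPM in Cre- MPTP replicate 1 and to 8.91 to 21.7 CPM elsewhere. Of these, Gng13 was at 6.18 to 79.2 CPM, and Crx and Gngt1 were at 3 reads or fewer.

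Levels between genes were compared as CPM per kilobase of exon over the 12 libraries other than Cre- MPTP replicate 1. Tef was the highest at 35.3 ± 2.65 (SD, n = 12 here and for the other genes). Nr1d2 at 24.8 ± 1.87 and Nr1d1 at 23.4 ± 4.44 followed and did not differ beyond their spread. Dbp reached 17.1 ± 4.77, Per1 10.1 ± 2.09 and Ciart 6.05 ± 0.791. Cry1 at 5.08 ± 0.686 and Per3 at 4.78 ± 0.349 lay within 1 SD of each other, as did Per2 at 3.59 ± 0.734 and Arntl at 3.38 ± 0.332. Thus the D-box factors and the REV-ERB genes were the abundant members, and the activator Arntl the lowest by mean.

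The clock genes also differed in how far they varied between mice. Over those 12 libraries the SD of log2 CPM was 0.39 for Dbp, 0.29 for Per1 and for Per2 and 0.27 for Nr1d1, against a median of 0.21 over all 19360 genes tested. It was 0.19 for Cry1 and for Ciart, 0.14 for Arntl, 0.11 for Nr1d2, for Tef and for Per3. The highest library held 2.45 times the lowest for Dbp and 1.27 times for Tef and for Per3. The read counts behind these levels ran from 198 for Ciart to 9614 for Tef, and Cre- MPTP replicate 1 held 92 for Ciart.

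**Figure D1:**
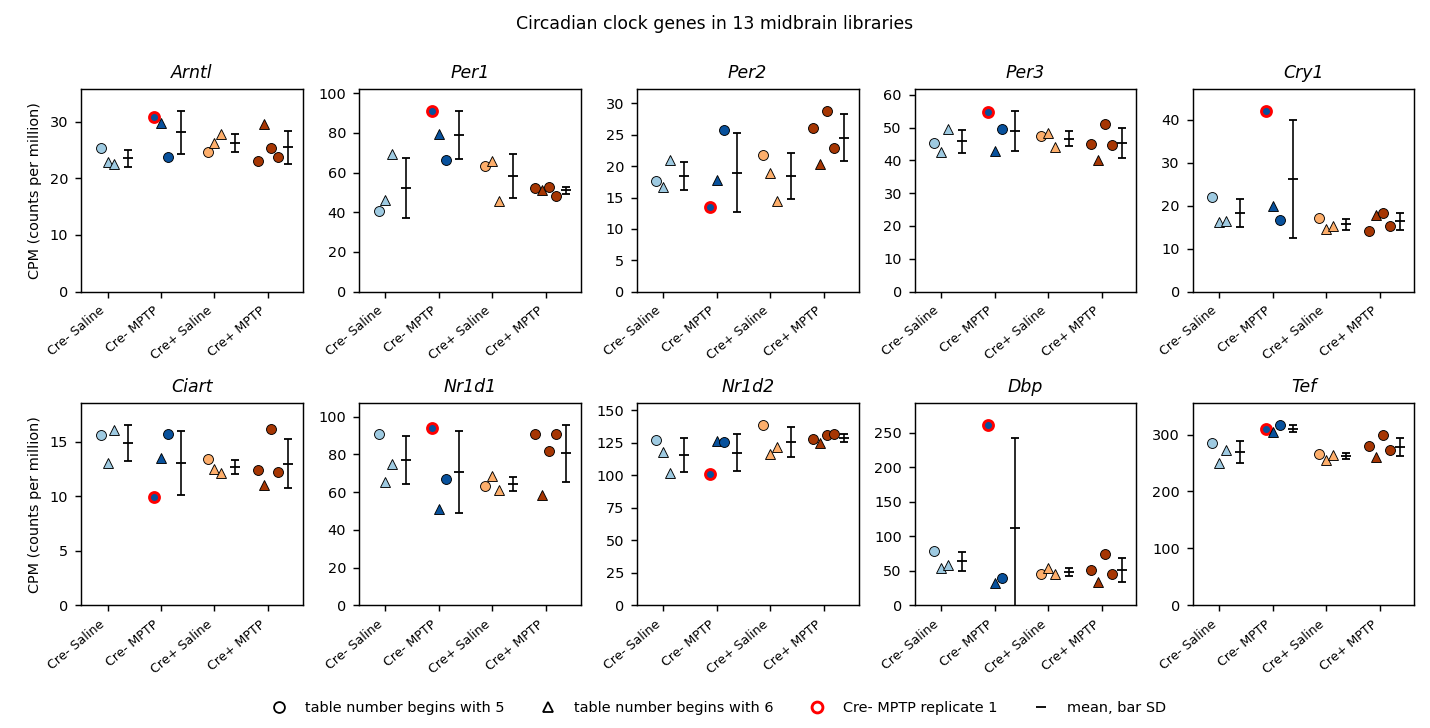
CPM of the 10 clock genes in each library (vertical axis, from 0) by group (horizontal axis), with the mean and SD of each group. Circles and triangles mark libraries whose table number begins with 5 or 6, and the red ring marks Cre- MPTP replicate 1, which stands far above all others for Dbp (262 CPM) and Cry1 (42.1 CPM); the SD bar of Dbp in Cre- MPTP runs below 0. Per1 in the 3 Cre- MPTP libraries lies above all 4 Cre+ MPTP libraries in these CPM, from which no GC trend is removed.

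The promoters differ in which clock sequences they hold close to the start of the gene, and the stretches that hold an E-box, D-box or RRE match are shown because the loop is known to act through such sites. Windows of 250 bases before to 50 after each start (RefSeq, build GRCm38.p6) were held for 9 of the 10 genes, 12 windows in all, and Per2 had none. Both strands were searched. The E-box CACGTG was found in 5 of the 12 windows, from Per1, Tef (both windows), Ciart and Cry1, and in 7.15% of all 32851 promoter windows. The related CACGTT was found for Nr1d1 and Cry1 (4.68% of all windows), the D-box TTATGTAA for Per3 (0.938%) and the RRE core TAGGTCA for Arntl (2.61%). TTACGTAA (0.119%), TGGGTCA (3.98%), the cyclic AMP element TGACGTCA (1.79%) and the palindromic glucocorticoid response element (0.00913%) had no match in these 12 windows. In the lines that follow each stretch runs 5′ to 3′ on the strand of the gene, with the matches in capitals.
Ciart, chr3:95882257-95882354, minus strand, 3 E-boxes: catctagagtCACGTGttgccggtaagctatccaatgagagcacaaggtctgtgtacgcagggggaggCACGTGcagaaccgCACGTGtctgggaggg
Per3, chr4:151044806-151044880, minus strand, 2 D-boxes: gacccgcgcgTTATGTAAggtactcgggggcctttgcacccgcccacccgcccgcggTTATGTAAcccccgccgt
Cry1, chr10:85185099-85185143, minus strand, CACGTT read on the other strand and an E-box: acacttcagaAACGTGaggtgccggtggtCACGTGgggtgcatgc
Per1, chr11:69098773-69098798, plus strand, an E-box: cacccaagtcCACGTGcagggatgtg
Tef, chr15:81802536-81802561, plus strand, an E-box: gctgtggctcCACGTGctgcagctgg
Tef, chr15:81811266-81811291, plus strand, an E-box: cctggcccagCACGTGtctacatcgt
Arntl, chr7:113207531-113207557, plus strand, an RRE core: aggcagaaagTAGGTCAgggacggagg
The stretches of Ciart and Cry1 lie upstream of all GENCODE M21 exons of their genes. That of Per3 lies upstream of its gene, inside an intron of a Camta1 transcript. The Per1 stretch and the second Tef stretch fall in introns of longer transcripts of the same genes. The first Tef stretch falls in an exon of a longer Tef transcript and of the antisense gene Gm17597, and that of Arntl in its first exon. A match is a run of letters, and no binding was measured here.

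In Cre- mice, which keep astrocytic Ripk3, MPTP was compared with saline. None of the 10 clock genes passed the test (edgeR quasi-likelihood, adjusted p under 0.05), in a comparison where 3.18% of all genes tested did, 431 higher and 185 lower. At an unadjusted p under 0.05 the count was 1 by edgeR, Per1, where 15.0% of all genes lay under it. DESeq2 called 0 of the 10 (5.87% of all genes) and limma voom with sample quality weights called 2, Per1 and Tef (13.6% of all genes). Without Cre- MPTP replicate 1 edgeR called 0 of the 10, against 9.38% of all genes, and 3 had an unadjusted p under 0.05, against 24.4%. The median difference of the 10 genes was 0.15 on the log2 scale and that of all genes 0.03.

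Per1 was the member with the lowest adjusted p in this comparison. After MPTP it read 90.9, 79.4 and 66.6 CPM, and in saline 40.6, 46.4 and 69.2 CPM. The groups overlapped by 1 saline library, Cre- Saline replicate 3. The log2 difference was 0.60 ± 0.21 (SE, 95% interval 0.15 to 1.05, edgeR adjusted p = 0.19). Without Cre- Saline replicate 3 it was 0.85 with an adjusted p of 0.041, and without each of the other 12 libraries in turn the adjusted p lay between 0.10 and 0.50. With the GC trend removed the difference was 0.41 (adjusted p = 0.42), and with Cre- MPTP replicate 1 also left out 0.70 (0.032). Among libraries whose table number begins with 5, Per1 was at 90.9 and 66.6 CPM after MPTP and 40.6 in saline. Among those beginning with 6 it was at 79.4 CPM after MPTP and at 46.4 and 69.2 in saline.

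Tef was the single member whose Cre- groups did not overlap, where 15.1% of all genes tested did not, 7.11% lying higher after MPTP. It was at 309, 304 and 317 CPM after MPTP and at 285, 249 and 273 CPM in saline. The log2 difference was small, 0.20 ± 0.11 (SE, 95% interval -0.03 to 0.44, adjusted p = 0.39 by edgeR, 0.013 by limma voom). The deposited files do not state whether reads were counted by strand, and 193 bases, 2.45% of the exon bases of Tef, overlap Gm17597 on the other strand.

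Dbp, the rhythmic output factor with the widest swing among the members, read 262, 32.1 and 40.4 CPM after MPTP, against 78.7, 53.5 and 58.9 CPM in saline. A single library, Cre- MPTP replicate 1, lay above every saline library, and the other 2 lay below all of them. The log2 difference was 0.80 ± 0.61 (SE, 95% interval -0.53 to 2.14, adjusted p = 0.53). Without that library it was -0.81 ± 0.26 (SE, 95% interval -1.37 to -0.25, adjusted p = 0.069), so the direction of Dbp rested on 1 library. Dbp shares 539 exon bases with Sphk2 on the opposite strand.

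Cry1, a repressor of the loop, was likewise highest in Cre- MPTP replicate 1, with the other 2 libraries inside the saline range. It was at 42.1, 19.9 and 16.7 CPM after MPTP and at 22.1, 16.3 and 16.5 CPM in saline. The log2 difference was 0.51 ± 0.29 (SE, adjusted p = 0.41), and without Cre- MPTP replicate 1 it was 0.00 ± 0.16 (SE, adjusted p = 0.99). The other 12 libraries held Cry1 between 14.0 and 22.1 CPM.

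Arntl, the activator, was at 30.9, 29.7 and 23.8 CPM after MPTP and at 25.3, 22.9 and 22.5 CPM in saline, with a log2 difference of 0.26 ± 0.15 (SE, adjusted p = 0.42). Nr1d1, which represses Arntl, was at 94.3, 51.1 and 67.0 CPM after MPTP and at 90.6, 65.4 and 75.0 CPM in saline, with a log2 difference of -0.12 ± 0.23 (SE, adjusted p = 0.81). The groups overlapped for both genes. Per2, Per3, Nr1d2 and Ciart overlapped too, with log2 differences of 0.05, 0.10, 0.02 and -0.19, SE from 0.13 to 0.24 and adjusted p from 0.66 to 0.95.

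GC content and the deviation of Cre- MPTP replicate 1 are set beside each other here because the Dbp value turned on that library. Dbp transcripts have a GC content of 61.6%, higher than 97.2% of genes tested, and Dbp deviated there by 2.43 on the log2 scale from the median of the other libraries. With each library's smooth trend on GC content removed, the deviation was 0.58. For Cry1, with a GC content of 51.6%, the deviation was 1.34 before and 1.41 after. Per1, with 59.4% GC, went from 0.80 to -0.60 and Nr1d1, with 56.8%, from 0.48 to -0.33. Per2 stood at -0.62 and -0.92, Arntl at 0.31 and 0.75 and Nr1d2, the member with the lowest GC content at 41.8%, at -0.31 and 0.60. Thus the sign of the deviation for Per1, Nr1d1 and Nr1d2 turned on the GC trend and that of the other 7 members did not.

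**Figure D2:**
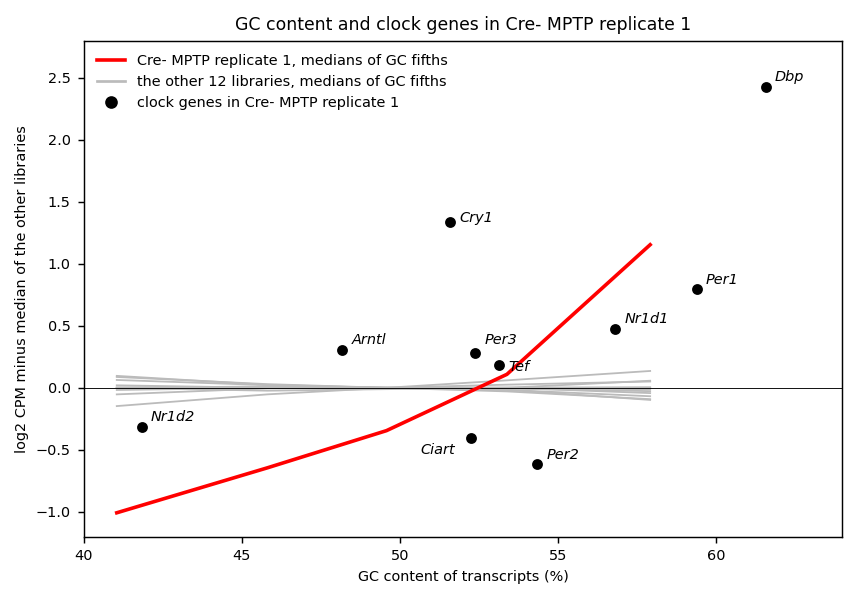
GC content of transcripts (horizontal axis, %) against the log2 CPM of a library minus the median of the other libraries (vertical axis). Lines join the medians of 5 equal groups of genes by GC content, red for Cre- MPTP replicate 1 and grey for each of the other 12 libraries, and black points are the 10 clock genes in Cre- MPTP replicate 1. The red line climbs from -1.01 to 1.15, the grey lines stay near 0, and Dbp at 2.43 and Cry1 at 1.34 are the highest points.

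In Cre+ mice, which lack Ripk3 in astrocytes, MPTP was compared with saline. None of the 10 clock genes passed the test by edgeR, DESeq2 or limma voom, and none had an unadjusted p under 0.05 by edgeR. By edgeR 0 of all 19360 genes tested were called (0.0%), and 672 (3.47%) had an unadjusted p under 0.05. DESeq2 called 0.429% of all genes and limma voom 1.52%, and edgeR without Cre- MPTP replicate 1 called 0.166% and none of the 10, with 1 at an unadjusted p under 0.05 (8.83% of all genes). Fitted on these 2 groups alone, DESeq2 called 204 genes higher and 116 lower of 18502 tested, and none of the 10. The groups overlapped for every member, where 9.66% of all genes did not overlap. Per2 had the largest difference. It was at 26.2, 20.3, 28.8 and 22.9 CPM after MPTP and at 21.8, 18.9 and 14.5 CPM in saline, with a log2 difference of 0.42 ± 0.22 (SE, 95% interval -0.07 to 0.90, adjusted p = 1.00). Nr1d1 was at 90.7, 58.6, 81.9 and 91.1 CPM after MPTP and at 63.4, 68.5 and 61.3 CPM in saline. Its log2 difference was 0.32 ± 0.21 (SE, adjusted p = 1.00). Here the lowest Nr1d1 value of all 7 libraries was an MPTP one, Cre+ MPTP replicate 2. Per1 was at 52.0, 51.0, 52.7 and 48.2 CPM after MPTP and at 63.1, 65.9 and 45.7 CPM in saline, a log2 difference of -0.19 ± 0.19 (SE). The other 7 members had log2 differences between -0.04 and 0.09.

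Cre+ and Cre- mice were then compared after MPTP, a comparison of levels that also holds any genotype difference present in saline. None of the 10 clock genes passed the test by edgeR, against 1.54% of all genes tested, 100 higher and 199 lower. At an unadjusted p under 0.05 there were 2, Per1 and Cry1 (19.0% of all genes). DESeq2 called 1, Per1 (4.31% of all genes), and limma voom called 0 (6.32% of all genes). Without Cre- MPTP replicate 1 edgeR called 0 of the 10, against 3.18% of all genes, and 2 had an unadjusted p under 0.05, against 12.3%. The 4 Cre+ libraries held Per1 between 48.2 and 52.7 CPM and the 3 Cre- libraries between 66.6 and 90.9 CPM, so the groups did not overlap. The log2 difference was -0.63 ± 0.19 (SE, 95% interval -1.04 to -0.22, adjusted p = 0.15 by edgeR and 0.047 by DESeq2). Without each library in turn it stayed between -0.73 and -0.52, with an adjusted p between 0.060 and 0.33. With the GC trend removed it was -0.29 with an adjusted p of 0.52, and with that trend removed and Cre- MPTP replicate 1 left out it was -0.58 with an adjusted p of 0.099. The groups overlapped once the trend was removed. Cre- MPTP replicate 1 then held Per1 at 5.24 log2 CPM, below the 4 Cre+ libraries (5.73 to 5.88), and the other Cre- libraries at 6.54 and 6.23 lay above them. Within tables numbered from 5, Per1 was at 52.0, 52.7 and 48.2 CPM in Cre+ and 90.9 and 66.6 CPM in Cre-. Within tables numbered from 6 it was at 51.0 CPM in Cre+ and 79.4 CPM in Cre-.

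Tef was the other member without overlap, at 280, 261, 300 and 272 CPM in Cre+ and at 304 to 317 CPM in Cre-, with a log2 difference of -0.16 ± 0.10 (SE, adjusted p = 0.40). Groups did not overlap for 11.3% of all genes tested, 5.07% lying lower in Cre+. Cry1 had a log2 difference of -0.67 ± 0.27 (SE, adjusted p = 0.22), and without Cre- MPTP replicate 1 it was -0.17 ± 0.15 (SE, adjusted p = 0.79). Dbp had -1.11 ± 0.57 (SE, adjusted p = 0.31), and without that library 0.50 ± 0.25 (SE, adjusted p = 0.45). Both genes overlapped with the remaining Cre- libraries, Cry1 at 14.0 to 18.2 CPM against 16.7 and 19.9, and Dbp at 34.5 to 74.4 CPM against 32.1 and 40.4. The log2 differences of the other 6 members lay between -0.14 for Arntl and 0.36 for Per2, with adjusted p from 0.38 to 0.97. For Ciart, at 0.99-fold (95% interval 0.75 to 1.30), no difference was detectable at this depth.

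**Figure D3:**
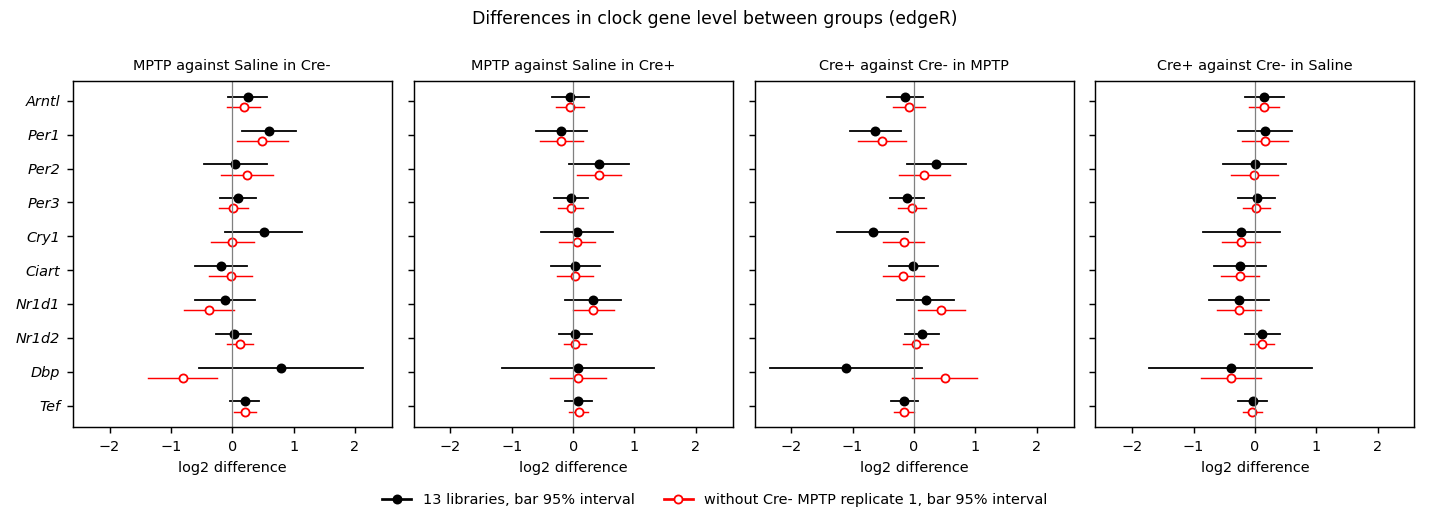
Log2 difference between groups (horizontal axis) for each clock gene (vertical axis) in 4 comparisons, from edgeR, with 95% intervals. Black points use 13 libraries and red open points leave out Cre- MPTP replicate 1. Per1 lies at 0.60 for MPTP in Cre- and at -0.63 for Cre+ against Cre- after MPTP, and Dbp passes from 0.80 to -0.81 and from -1.11 to 0.50 when that library is left out.

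The astrocyte list is set beside Per1 because it too read highest in Cre- MPTP as a sum, through 1 gene. Summed over 8 genes it was 5359 to 6024 CPM in Cre- MPTP, 4381 to 4898 CPM in Cre+ MPTP, 4438 to 4803 CPM in Cre+ Saline and 3938 to 4708 CPM in Cre- Saline. Gfap, the filament gene of reactive astrocytes, was at 1242 to 3171 CPM in Cre- MPTP and at 655 CPM or less elsewhere. Without Gfap the other 7 genes summed to 2188 to 4401 CPM in Cre- MPTP and to 3646 to 4366 CPM in the other groups, so the groups overlapped. Against Cre+ MPTP, Gfap and Aldh1l1 were higher in Cre- MPTP without overlap, Gja1 and Slc4a4 were lower without overlap, and Aqp4, Slc1a2, Slc1a3 and Aldoc overlapped. Aqp4 was at 100.5 to 270.5 CPM in Cre- MPTP and 200.5 to 312.9 CPM in Cre+ MPTP. The low ends in Cre- MPTP, 2188 CPM for the 7 genes and 100.5 CPM for Aqp4, were those of Cre- MPTP replicate 1. In bulk tissue fewer cells of a type and less RNA per cell cannot be told apart, and the part of astrocyte number or state in the Per1 level was not tested. The 8 suprachiasmatic markers summed to 49.2 to 59.5 CPM in Cre- MPTP and to 36.1 to 39.4 CPM in Cre+ MPTP. Between these groups Rgs16 (24.3 to 30.0 against 13.1 to 19.6 CPM) and Lhx1 (14.7 to 27.9 against 11.5 to 14.6 CPM) were higher in Cre- without overlap, and the other 6 overlapped. Of these, Prok2 was at 0.55 to 2.49 CPM in Cre- and 0.076 to 0.62 CPM in Cre+, Vip at 2.06 to 5.62 against 5.09 CPM or more, and Six6 and Nms at 4 reads or fewer in each MPTP library. The part of that list in the clock levels was not tested.

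In saline, Cre+ and Cre- mice differed in none of the 10 genes by edgeR, DESeq2 or limma voom, and none had an unadjusted p under 0.05 by edgeR. No gene of the genome was called by edgeR (0.0%), with 176 (0.909%) at an unadjusted p under 0.05, and DESeq2 called 0.0103% and limma voom 0.0155% of genes. The groups overlapped for all 10, where 11.6% of all genes did not overlap. The largest log2 difference was that of Dbp, -0.39 ± 0.61 (SE), from 45.6, 54.9 and 45.2 CPM in Cre+ and 78.7, 53.5 and 58.9 CPM in Cre-. Per1 was 0.16 ± 0.20 (SE) and Nr1d1 -0.26 ± 0.23 (SE). The interaction, which asks whether the MPTP difference itself differed by genotype, called none of the 10 by the 3 tools and 0.0103% of all genes by edgeR, 1.15% by DESeq2 and 3.56% by limma voom. Without Cre- MPTP replicate 1 edgeR called 1.03% of all genes and none of the 10, with 3 at an unadjusted p under 0.05 (12.4% of all genes). With all libraries Per1 alone had one under 0.05 (5.76% of all genes), with an interaction of -0.79 ± 0.28 on the log2 scale (SE, 95% interval -1.40 to -0.18, adjusted p = 0.62). Nr1d1 had 0.45 ± 0.31 and Dbp -0.72 ± 0.84 (SE), and with Cre- MPTP replicate 1 left out Nr1d1 had 0.71 ± 0.24 and Dbp 0.89 ± 0.33 (SE, edgeR adjusted p = 0.25 and 0.30).

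Within groups, some of the clock genes varied together. Deviations from the group means were compared over the 12 libraries without Cre- MPTP replicate 1, as a description with no test, since the points share library depth and composition and the deviations of a group sum to 0. Of 45 pairs of members, 17 had a Pearson r over 0.5, 4 had one under -0.5 and the other 24 lay between. The share over all pairs of genes was not computed. Per3 rose and fell with Ciart (r = 0.91, Spearman rho = 0.92) and with Per2 (r = 0.88, rho = 0.85). Dbp went with Ciart (r = 0.84, rho = 0.82), with Tef (r = 0.83, rho = 0.75) and with Nr1d1 (r = 0.70, rho = 0.71). Without the 2 libraries farthest from the median of Dbp these 3 values were 0.57, 0.66 and 0.76. Arntl ran against Per2 (r = -0.74, rho = -0.66) and against Nr1d1 (r = -0.63, rho = -0.50). Without the 2 libraries farthest from the median of Per2 the value with Per2 was -0.69. Without the 2 farthest from the median of Nr1d1 the value with Nr1d1 was -0.68. Neither was computed without the 2 libraries farthest from the median of Arntl. With the GC trend of each library removed, Per3 and Ciart had r = 0.92, Dbp and Nr1d1 0.64, Per2 and Arntl -0.71 and Nr1d1 and Arntl -0.52. Against Per2, Per3, Ciart, Tef, Dbp and Nr1d1, Per1 had r between -0.17 and 0.44 and Nr1d2 between -0.14 and 0.24.

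**Figure D4:**
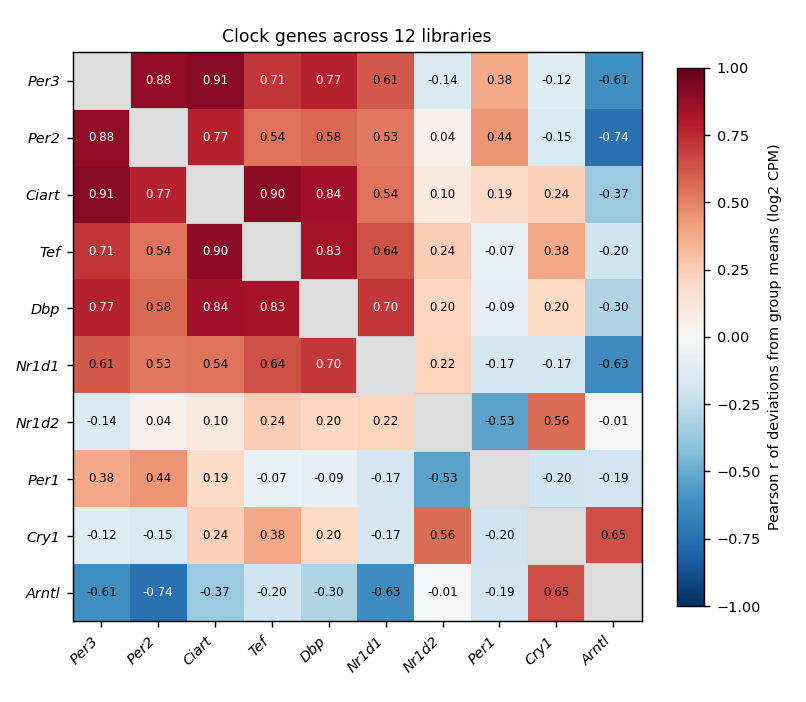
Pearson r of deviations from the group means of log2 CPM for each pair of clock genes over the 12 libraries without Cre- MPTP replicate 1 (colour scale from -1 to 1, both axes list the genes). Per3, Per2, Ciart, Tef, Dbp and Nr1d1 form a block of positive values, from 0.53 to 0.91, and Arntl runs against Per2 at -0.74.

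Including Cre- MPTP replicate 1 changed several of these values, with r of Dbp and Ciart going to -0.37 and that of Per2 and Per3 to 0.30. Npas2, which can stand in for CLOCK beside ARNTL and was named here after its values were seen, followed Arntl over the 12 libraries (r = 0.84, rho = 0.81). Apart from Cre- MPTP replicate 1, both genes were highest in the 2 MPTP libraries whose table number begins with 6. Of these, Cre- MPTP replicate 2 held Arntl at 29.7 and Npas2 at 11.9 CPM, and Cre+ MPTP replicate 2 held them at 29.5 and 10.6 CPM. The same 2 libraries held the lowest Nr1d1, 51.1 and 58.6 CPM, and the lowest Dbp, 32.1 and 34.5 CPM, of all 13. The other 4 MPTP libraries apart from Cre- MPTP replicate 1 held Nr1d1 at 67.0 to 91.1 CPM and Arntl at 23.1 to 25.4 CPM. Low Nr1d1 did not go with high Arntl in every group. Cre- Saline replicate 1 held both the highest Nr1d1 (90.6 CPM) and the highest Arntl (25.3 CPM) of its group. Cre- MPTP replicate 1 did the same in its own (94.3 and 30.9 CPM), but its rank for Nr1d1 turned on the GC trend. With that trend removed its Nr1d1 was the lowest of its group, at 5.80 log2 CPM against 5.82 and 6.17. Its Arntl was still the highest there, at 5.36 against 4.85 and 4.54. Cre- Saline replicate 1 and Cre- MPTP replicate 1 also held the most forebrain neuron RNA (125 and 91.6 CPM), and its part in these levels was not tested. Fos, a gene of recent cell stimulation, was also named after its values were seen. It was at 33.7 to 36.3 CPM in the 2 MPTP libraries numbered from 6 and at 12.6 to 19.1 CPM in the other 5 MPTP libraries. In saline Fos was at 30.2 to 37.9 CPM, apart from Cre- Saline replicate 1 at 11.4 CPM. Over the 12 libraries it ran against Nr1d1 (r = -0.89, rho = -0.87). The 2 MPTP libraries numbered from 6 also share replicate number 2. The table number and the replicate number therefore cannot be told apart among the MPTP libraries. The meaning of the table number is not given in the sources used here, and the part of harvest hour was not tested.

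The genes whose log2 CPM followed Dbp most closely over all 13 libraries were Lmo1 (r = 0.99), Zfp692 (0.99), Tmem121 (0.98), Phf1 (0.98) and Rgl2 (0.98). Those that ran most against it were Frmpd4 (-0.98), Arfgef1 (-0.98), Ubxn7 (-0.97), Pbrm1 (-0.97) and Gm38393 (-0.97). All 5 of the first set deviated upward in Cre- MPTP replicate 1, by 1.02 to 2.67 on the log2 scale, and all 5 of the second downward, by 1.02 to 1.71. Without that library Lmo1 (0.95), Zfp692 (0.95) and Frmpd4 (-0.92) were still among the 5 closest at their ends, and Zfp213 led with 0.97.

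Other genes of the clock were counted too. Of 20 further genes, among them Clock, Npas2, Cry2, the ROR genes, Nfil3, Hlf, Bhlhe40, Bhlhe41 and casein kinases, 1 rose with MPTP in Cre- mice and none fell (edgeR). None was called in the other comparisons, and at an unadjusted p under 0.05 there were 3 for MPTP in Cre- (15.0% of all genes), 1 for MPTP in Cre+ (3.47%), 7 for genotype after MPTP (19.0%), 0 for genotype in saline (0.909%) and 2 for the interaction (5.76%). The gene that rose was Timeless, whose product acts at the replication fork and has been linked to the clock. It was at 8.78 to 10.1 CPM in Cre- MPTP and at 5.20 to 5.59 CPM in Cre- Saline, with no overlap, a log2 difference of 0.82 ± 0.16 (SE, adjusted p = 0.013). The call was lost without Cre- Saline replicate 1 (adjusted p = 0.056) or replicate 2 (0.072). In Cre+ mice Timeless was at 7.45 to 8.72 CPM after MPTP and at 5.13 to 6.35 CPM in saline, a log2 difference of 0.48 ± 0.15 that missed the test (adjusted p = 0.90).

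Klf9, a clock-controlled factor that glucocorticoids also induce, is named here after its values were seen. It was at 353, 144 and 140 CPM in Cre- MPTP, at 90.4 to 105 CPM in Cre- Saline, at 90.1 to 94.7 CPM in Cre+ Saline and at 95.3 to 106 CPM in Cre+ MPTP, so each Cre- MPTP library lay above all others. The log2 difference for MPTP in Cre- was 1.10 ± 0.28 (SE) and for Cre+ against Cre- after MPTP -1.11 ± 0.26 (SE), with edgeR adjusted p of 0.059 and 0.058. Without Cre- MPTP replicate 1 they were 0.53 ± 0.08 and -0.53 ± 0.08 (SE), with adjusted p of 0.0011 and 0.0023.

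Genes known as glucocorticoid targets are set beside Per1 because they respond to the stress hormone, and they are a list of 14 genes. Of these, 11 rose with MPTP in Cre- mice and none fell, where 3.18% of all genes tested were called. In Cre+ against Cre- after MPTP 9 were lower, where 1.54% of all genes were called. These counts were 12 and 12 without Cre- MPTP replicate 1 (9.38% and 3.18% of all genes). By edgeR none was called for MPTP in Cre+ mice, for genotype in saline or in the interaction (0.0%, 0.0% and 0.0103% of all genes). At an unadjusted p under 0.05 there were 6, 1 and 12 (3.47%, 0.909% and 5.76% of all genes). The calls there without Cre- MPTP replicate 1 were 1, 0 and 5 (0.166%, 0.0% and 1.03% of all genes). In Cre- mice Fkbp5 rose by 2.75 on the log2 scale (adjusted p = 6.3e-04), Plin4 by 5.96 (0.0010), Cdkn1a by 4.56 (0.0026) and Zbtb16 by 2.08 (0.0026). In Cre+ against Cre- after MPTP Fkbp5 differed by -2.11 (0.0056), Sgk1 by -1.87 (0.013), Nfkbia by -2.41 (0.015) and Mt1 by -3.03 (0.016), all edgeR adjusted p. Sgk1, Nfkbia and Mt1 lost that call without Cre+ MPTP replicate 1 or replicate 3, and Nfkbia and Mt1 also without replicate 4 (adjusted p from 0.050 to 0.067), while without Cre- MPTP replicate 1 the Mt1 value was -1.72. Within groups Per1 and Fkbp5 had r = -0.21 over the 12 libraries and -0.09 with the GC trend removed. The part of glucocorticoids, or of other inducers, in the levels of the 14 genes and of Per1 was not tested. Of 12 immediate-early genes, 1 fell with MPTP in Cre- mice and none rose, where 3.18% of all genes were called. That gene was Arc, with a log2 difference of -0.97 ± 0.20 (SE, adjusted p = 0.019). By edgeR none was called in the other 4 comparisons. At an unadjusted p under 0.05 there were 2 for MPTP in Cre+ (3.47% of all genes) and 3 for genotype after MPTP (19.0%). There were 3 for genotype in saline (0.909%) and 6 for the interaction (5.76%). With Cre- MPTP replicate 1 left out, 2 were called for genotype after MPTP (3.18% of all genes) and 2 in the interaction (1.03%). These were Arc and Junb in each, and Arc then differed by 0.69 (edgeR adjusted p = 0.038) and 1.26 (0.025). The call of Arc was lost without Cre- Saline replicate 2 (0.071) or replicate 3 (0.075).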

How the data were processed

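Total RNA of midbrain was sequenced from 13 mice. Per the labels and the study's methods, the authors trimmed reads (Trimmomatic 0.36), aligned them to GRCm38 (STAR 2.5.2b) and counted unique gene hits (featureCounts, Subread 1.5.2). The deposited values are raw counts per gene, with the exon length of each gene in the same tables (unit: bases). The strand setting of the counting is not given in the sources used here. Ensembl identifiers were paired with GENCODE M21 symbols (48970 of 49315 genes).

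The main test was edgeR 4.0.16 quasi-likelihood (R 4.3.3) over all 13 libraries, with group as the only term, TMM scaling and a minimum of 10 counts in 3 or more libraries, which 19360 genes passed. P-values were adjusted by Benjamini-Hochberg within each of 5 comparisons, and the threshold was 0.05. SE is the log2 difference divided by the root of F. The study used DESeq2 (here 1.42.0 as an alternative, with limma 3.58.1). CPM are TMM-scaled, and log2 CPM used a prior count of 2. Figures were drawn in matplotlib. The procedure was tested on simulated counts. The 10 genes and the further lists were chosen with earlier results of these data known, so they are no independent support for any pattern.

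Genes named beside the 10 were those of each further list that a comparison called, at most 4 by smallest p, and the 5 genes closest and the 5 most opposed to Dbp. Npas2, Klf9 and Fos were named besides, after their values were seen. The groups share animals between comparisons (each group serves in 2), so the comparisons are not independent. Each library was 1 mouse. Replicate numbers were not treated as pairs in the main test. Alternatives were DESeq2 and limma voom, other scaling, no filter, fits on 2 groups, a replicate block, a term for the table number and leaving out each library. Leaving out 2 libraries and removing the GC trend were added after the data were seen. Promoter windows are RefSeq sequences on GRCm38.p6.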

Additional observations from a re-analysis of the deposited data

How the results depend on the processing

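The 10 clock genes were refitted in 24 alternatives. In MPTP against saline in Cre- mice, limma voom called 2 (Per1 and Tef), the fit with the GC trend removed and without Cre- MPTP replicate 1 called 1 (Per1), and leaving out single libraries gave 0 to 1. In Cre+ against Cre- after MPTP, DESeq2 called 1 (Per1) over all libraries and 1 on the 2 groups.

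Dbp reversed in that comparison of Cre- mice to -0.58 with limma voom, -0.798 without the 2 libraries that stand apart, -0.17 with the GC trend removed and -0.55 with it removed and Cre- MPTP replicate 1 left out. In Cre+ against Cre- after MPTP it reversed in the same 4 settings to 0.47, 0.56, 0.035 and 0.41, and in the interaction to 0.70, 0.95, 0.29 and 0.67. Without single libraries Dbp ran from -0.81 to 1.21, from -1.52 to 0.50 and from -1.13 to 0.89. For MPTP in Cre- mice Per2 was -0.026 with a term for the table number, Ciart 0.11 with limma voom and 0.0030 with the GC trend removed and Cre- MPTP replicate 1 left out. Without single libraries Per2 ran from -0.24 to 0.24, Nr1d1 from -0.38 to 0.052 and Nr1d2 from -0.063 to 0.12. In Cre+ against Cre- after MPTP Nr1d2 was -0.18 with the GC trend removed, and Ciart ran from -0.17 to 0.15 without single libraries. Apart from what a left-out library shows by itself, the cause was not tested.

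Same-numbered libraries had correlations of deviations from -0.179 to 0.184, and differently numbered ones from -0.182 to 0.239. Of 13 libraries, 5 correlated best with their own number. These correlations were weak and taken over all genes, so whether replicate numbers pair the samples was not settled by them. With the replicate block 0 clock genes were called in the 5 comparisons, Ciart in Cre+ against Cre- after MPTP went to 0.010, and genes called over the genome in that comparison fell from 299 to 0.

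Without Cre- MPTP replicate 1, r of Per2 and Per3 was 0.88, of Per3 and Ciart 0.91, of Dbp and Ciart 0.84, of Nr1d1 and Arntl -0.63 and of Dbp and Arntl -0.30. Depth was 92 reads or more for each clock gene in each library.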
